A study of Rattus norvegicus with 6 samples.

Results

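The genes described here encode the enzymes and transporters of glycolysis and a set of transcripts known to be induced by low oxygen, read across 6 RNA-seq libraries of rat abdominal aorta with aneurysm. They were chosen by name from a list of 32 genes, of which 31 had a row among the 24988 genes of the deposited table. Gapdh, a glycolytic dehydrogenase, was dropped because it had no row under that name. Each of the 31 passed the filter on low counts, which kept 16522 genes in all. The tissue came from Sprague-Dawley rats that all carried an aneurysm. In 3 libraries the aneurysm had received no treatment, and in 3 it had been treated with NP, a targeted nanotherapy by the title of the series. The sources used here do not give what NP is made of, how the aneurysm was induced, the rats' age or the time of sampling. Nor do the labels state whether the libraries are separate animals, so the tests reflect the spread among the libraries, which may be technical.

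Glycolysis turns glucose into pyruvate in the cytosol. Cells that lack oxygen, and many activated immune cells, pass the pyruvate to lactate dehydrogenase and export the lactate. Most genes of the pathway are under the control of hypoxia-inducible factor 1. Its alpha subunit, encoded by Hif1a, is made at all times. In oxygen the prolyl hydroxylases encoded by the Egln genes mark that subunit for destruction, so its activity is set largely at the level of the protein. When it is spared it pairs with ARNT and binds a short core sequence near its target genes. In the artery wall these transcripts can come from smooth muscle, endothelium, fibroblasts and the macrophages that enter an aneurysm.

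One library stood apart before any comparison of the groups. Total counts ranged from 26100468 to 30939002 per library, and mitochondrial genes took 8.54% to 13.9% of them. The 31 genes together took 1.18% of the counts in treated replicate 1 and between 0.413% and 0.565% in the other 5 libraries. In CPM (read counts scaled to library size with edgeR's trimmed mean of M values), 26 of the 31 genes were highest in treated replicate 1, where 27.3% of all tested genes were. In 16 of them treated replicate 1 lay above 2 times the highest of the other 5 libraries, a distance reached by 2.21% of all tested genes. On the authors' FPKM scale these counts were 24 and 12 of 31, against 16.8% and 1.32% of all tested genes. The library was singled out after its values were seen, so these shares are a description. The fold changes and list medians below are therefore given with and without it.

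**Figure D1:**
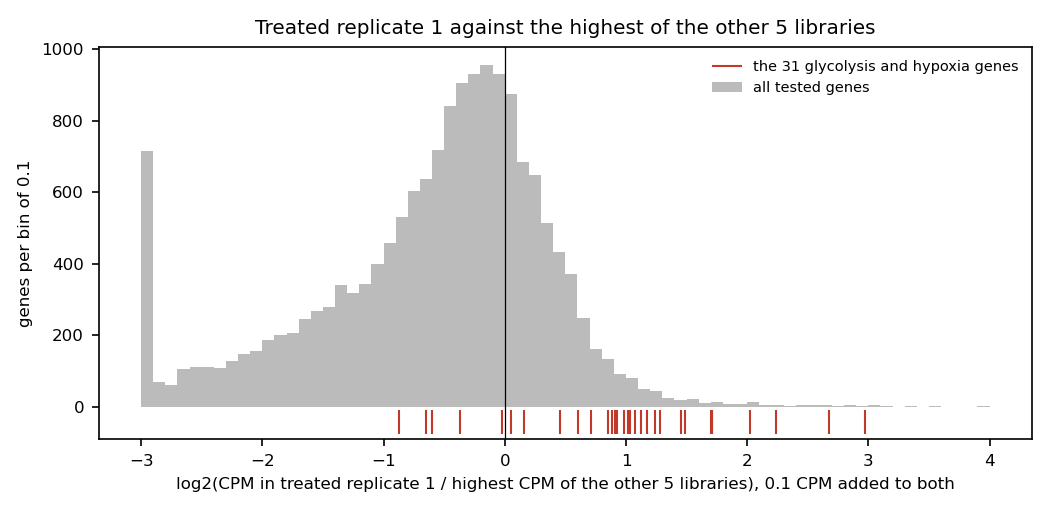
Histogram of all 16522 tested genes by the log2 ratio of their CPM in treated replicate 1 to their highest CPM in the other 5 libraries, with 0.1 CPM added to both and values beyond the ends of the axis gathered in the end bins; red ticks mark the 31 glycolysis and hypoxia genes. Ticks right of 0 are the 26 genes that were highest in treated replicate 1, and ticks right of 1 lie among the 2.21% of genes at more than 2 times the other libraries.

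Because many of these genes were highest in the same library, the promoters of 6 of them are shown. They are the transporters Slc2a1 and Slc16a3, which had the largest ratio of treated replicate 1 to the other libraries, the enzyme Ldha and the mitophagy gene Bnip3, and P4ha2 and Ankrd37, which had smaller ratios. They were picked by hand as examples after the values and matches were seen, not by rank: Egln3, Tpi1 and Pgk1 had larger ratios than Ldha and are not shown. The sequences come from the RefSeq promoter table of GRCr8, a build that the deposited files do not name. Each runs over the 170 bases before the transcription start, and capitals mark ACGTG or GCGTG on either strand (CACGT or CACGC when read on the strand shown), the core bound by hypoxia-inducible factors. The palindrome CACGTG, which holds the core on both strands, is also the E-box read by clock and MYC proteins.
Slc2a1, chr5:138002352-138002521, plus strand: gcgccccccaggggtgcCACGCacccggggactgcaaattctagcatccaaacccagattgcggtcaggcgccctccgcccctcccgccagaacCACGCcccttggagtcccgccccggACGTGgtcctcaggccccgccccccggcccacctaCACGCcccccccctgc
Slc16a3, chr10:106712158-106712327, plus strand: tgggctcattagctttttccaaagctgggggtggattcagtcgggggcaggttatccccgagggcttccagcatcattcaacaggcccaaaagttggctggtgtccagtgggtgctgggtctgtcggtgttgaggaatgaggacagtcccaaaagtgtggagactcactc
Ldha, chr1:106507922-106508091, plus strand: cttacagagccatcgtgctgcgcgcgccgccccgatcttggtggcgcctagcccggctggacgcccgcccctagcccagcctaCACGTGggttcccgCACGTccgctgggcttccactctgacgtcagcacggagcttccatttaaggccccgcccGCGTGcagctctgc
Bnip3, chr1:203154963-203155132, minus strand: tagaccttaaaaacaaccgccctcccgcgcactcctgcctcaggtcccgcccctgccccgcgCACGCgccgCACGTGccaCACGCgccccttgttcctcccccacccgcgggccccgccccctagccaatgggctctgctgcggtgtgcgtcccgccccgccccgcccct
P4ha2, chr10:38743724-38743893, plus strand: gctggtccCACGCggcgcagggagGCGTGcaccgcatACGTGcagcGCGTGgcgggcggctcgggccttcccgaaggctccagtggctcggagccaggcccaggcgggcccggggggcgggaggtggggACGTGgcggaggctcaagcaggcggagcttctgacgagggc
Ankrd37, chr16:53001337-53001506, plus strand: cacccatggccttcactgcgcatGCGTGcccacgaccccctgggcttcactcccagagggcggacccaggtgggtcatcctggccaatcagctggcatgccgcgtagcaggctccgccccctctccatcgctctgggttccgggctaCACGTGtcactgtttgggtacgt

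Of the 31 genes 27 matched an entry of the promoter table, the others being Pgk1, Ca9, Ndrg1 and Ero1a. In windows from 250 bases before to 50 bases after the start, 20 of the 27 genes (74.1%) held the core at least once. The same was true of 61.1% of the 10874 tested genes that matched the table and of 44.6% of all 27457 genes in it. Of the genes above 2 times the other libraries in treated replicate 1, 9 of 13 (69.2%) held the core, and of the other members 11 of 14 (78.6%) did. Counted by window, since some genes have more than 1 annotated start, the shares were 10 of 14 (71.4%) and 11 of 17 (64.7%), with 2.07 and 1.47 matches per window. The order thus depends on the way of counting, and the difference was not tested. Slc16a3, Tpi1, Egln3 and Hk2, which were above 2 times the other libraries in treated replicate 1, had none of these letters in their windows. Nor did Adm, Pkm and Pfkfb4, which were not above that distance. P4ha2 had 5 matches in the stretch printed above. A match is a run of letters and not a measured binding site.

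**Figure D2:**
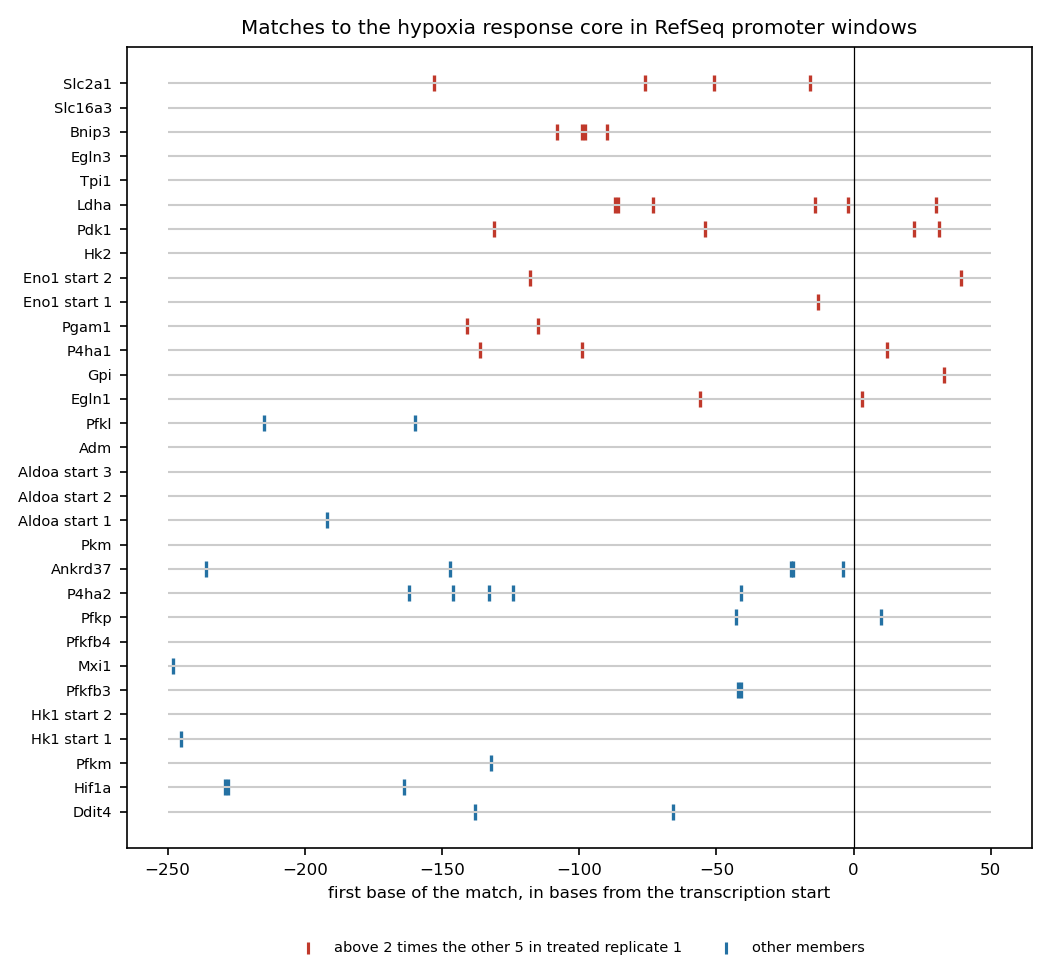
Position of each match to the hypoxia response core in RefSeq promoter windows of GRCr8, in bases from the transcription start, with 1 line per annotated start. Lines are ordered from the gene with the highest ratio of treated replicate 1 to the other libraries (top) to the lowest (bottom), and red marks belong to genes above 2 times the other 5 libraries there; matches lie in both parts of the plot.

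The comparison of treated with untreated aortas asks whether these transcripts differed with NP. By edgeR's quasi-likelihood test with Benjamini-Hochberg adjustment over all tested genes, 0 of the 31 were under the threshold of 0.05, and their smallest adjusted p was 0.999992. Over all genes 0 of 16522 (0%) passed, with 319 (1.93%) at an unadjusted p under 0.05. Among the 31 genes 0 reached an unadjusted p of 0.05, the smallest being 0.0589 for Adm. DESeq2 called 29 genes (0.151%) and 0 of the 31; 2 of the 31, Adm and Ddit4, had an unadjusted p under 0.05 there, beside 2.77% of all genes. Limma-voom with library weights called 0 genes, and 0 of the 31 had an unadjusted p under 0.05 beside 2.96% of all genes. Limma on log2(FPKM + 1) called 1 gene (0.00605%), which was not a member, and Adm alone of the 31 had an unadjusted p under 0.05 beside 2.04% of all genes.

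In the fit to all 6 libraries 28 of the 31 genes had a log2 fold change above 0, beside 55.6% of all tested genes. Their median log2 fold change was 0.59, and that of all tested genes was 0.04. Without treated replicate 1 only 8 of the 31 were above 0, beside 49.7% of all genes, and the median was -0.19 against a median of -0.00 over all genes. In that fit 0 of the 31 genes had an unadjusted p under 0.05 (3.3% of all genes did) and 0 passed the adjusted threshold, with a smallest adjusted p of 0.974. With limma-voom's library weights the median was 0.06 and 20 genes were above 0. In 0 of the 31 genes did all treated libraries lie above all untreated ones, where 2.47% of all tested genes had that arrangement. All treated libraries lay below in 0 of 31, against 3.2% of all tested genes.

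**Figure D3:**
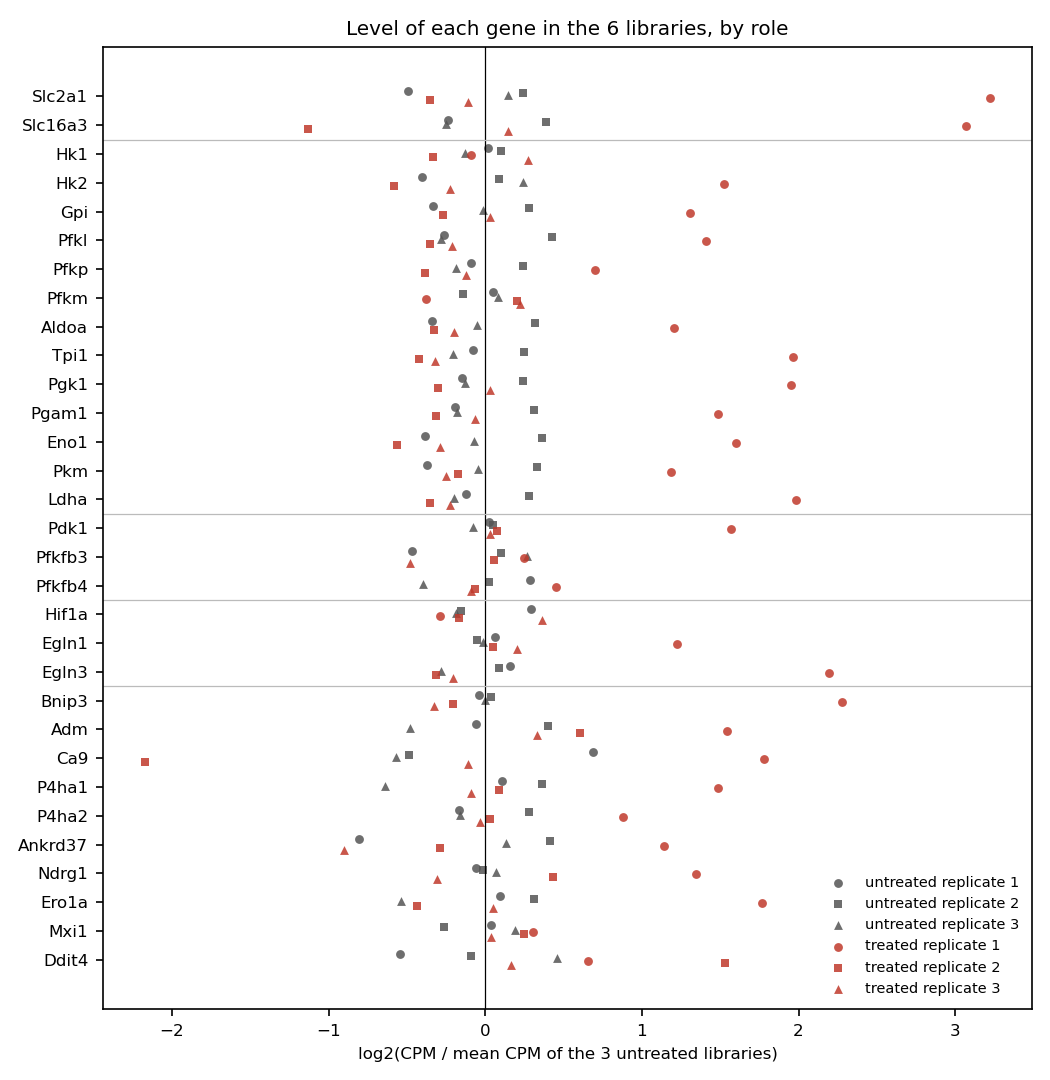
Each gene's CPM in each library as a log2 ratio to the mean of the 3 untreated libraries, 1 row per gene in order of role (transport, glycolytic enzymes, control of flux, oxygen sensing, other hypoxia-induced genes), with untreated libraries in grey, treated in red and the replicate number as the shape. Treated replicate 1 (red circles) lies to the right of all other libraries in 26 of the 31 rows, and the other 5 libraries lie within 2 times of each other in 25.

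The transporters at the ends of the pathway showed the widest distance. Slc2a1, the glucose transporter GLUT1, was at 48.6, 80.8 and 75.5 CPM in untreated replicates 1, 2 and 3 and at 637, 53.4 and 63.2 CPM in treated replicates 1, 2 and 3. Treated replicate 1 was thus 7.88 times the highest other library, and the other treated libraries lay inside the untreated range. The log2 fold change was 1.88 (SE 0.93, 95% interval -0.32 to 4.07), and it was -0.24 (SE 0.25) without treated replicate 1. Slc16a3, the lactate exporter MCT4, was at 44.0, 67.9 and 43.5 CPM untreated and at 434, 23.7 and 57.4 CPM treated. Again 1 treated library was far above the rest, and treated replicate 2 was the lowest of all 6. Its log2 fold change of 1.73 (SE 0.96) became -0.36 (SE 0.40) without treated replicate 1.

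Of the 13 measured enzymes that carry glucose to lactate, 12 had a log2 fold change above 0 and 1 below, with a median of 0.53, and 0 passed the test. Without treated replicate 1 only Pfkm was above 0, and the median was -0.26. Treated replicate 1 was the highest library in 11 of the 13, the exceptions being Hk1 and Pfkm. Ldha, the lactate dehydrogenase subunit that favours lactate, was at 296, 391 and 281 CPM untreated and at 1274, 252 and 276 CPM treated. Tpi1, which interconverts the triose phosphates, was at 88.3, 110.8 and 81.1 CPM untreated and at 364, 69.8 and 75.0 CPM treated. Pgk1, an ATP-yielding kinase of the lower pathway, was at 148, 194 and 150.1 CPM untreated and at 635, 133 and 168 CPM treated. Treated replicate 2 lay below every untreated library in these 3 genes, and treated replicate 3 did so in Ldha and Tpi1.

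Eno1, the enolase of most tissues, was at 465, 781 and 577 CPM untreated and at 1839, 412 and 498 CPM treated. Aldoa, the aldolase that splits fructose bisphosphate, was at 789, 1244 and 961 CPM untreated and at 2305, 795 and 870.5 CPM treated. Pkm, the pyruvate kinase, was at 494, 802 and 620 CPM untreated and at 1449.7, 566 and 537 CPM treated. After treated replicate 1, untreated replicate 2 was next in each of these 3 genes, and it was the highest of the other 5 libraries in 10 of the 13 enzymes and in both transporters. The share of all tested genes for which untreated replicate 2 held that place was not counted. Gpi, which isomerises glucose phosphate, and Pgam1, a phosphoglycerate mutase, were 2.04 and 2.25 times as high in treated replicate 1 as in the next library. The enzymes had similar spreads among the other 5 libraries, with a ratio of highest to lowest between 1.29 and 1.89. Aldoa, Eno1, Ldha, Pgam1, Pgk1 and Tpi1 are uncertain to the extent that their reads can be shared with processed pseudogenes, since no source used here gives the counting rule.

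Isoforms of the same step differed in their place in treated replicate 1. Hk2, the hexokinase induced in hypoxic and activated cells, was at 52.2, 73.5 and 81.8 CPM untreated and at 199, 46.3 and 59.2 CPM treated. Hk1, the hexokinase found in most cells, stayed between 38.6 and 58.7 CPM in all 6 libraries, with treated replicate 1 at 45.6 CPM. On the authors' FPKM scale, which divides by gene length, the level of Hk2 was 2.16 times that of Hk1 in treated replicate 1 and between 0.498 and 0.911 times it in the other 5. Among the phosphofructokinases, Pfkl, the liver type, was at 222 CPM in treated replicate 1 and between 65.6 and 112.5 CPM elsewhere. Pfkm, the muscle type, was at 17.2 CPM there, the lowest of the 6 libraries, and between 20.3 and 26.1 CPM elsewhere. The FPKM ratio of Pfkl to Pfkm was 12.9 in treated replicate 1 and 2.55 to 5.54 in the other libraries. Pfkp, the platelet type, lay between them, at 62.2 CPM against 29.2 to 45.2 CPM.

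Among the genes that set the flux, Pdk1 showed the tightest background. Pdk1, a kinase that inhibits pyruvate dehydrogenase, was at 15.5, 15.7 and 14.4 CPM untreated and at 45.1, 16.001 and 15.5 CPM treated. The 5 other libraries spanned 1.11 times from lowest to highest, the narrowest range of the 31 genes, and treated replicate 1 was 2.82 times the highest of them. Pfkfb3 and Pfkfb4, which make the allosteric activator of phosphofructokinase, did not share that pattern. Pfkfb3 was at 62.7, 92.9 and 104 CPM untreated and at 103, 90.1 and 62.0 CPM treated, with both groups spanning nearly the same range. Pfkfb4 lay between 4.83 and 8.67 CPM in all 6 libraries. For Pfkfb3 counts and FPKM did not share 1 length across libraries (SD 0.08 on the log2 scale), and the 2 scales differ slightly for it.

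Transcripts of the oxygen-sensing genes did not share one pattern. Hif1a was at 94.9, 69.8 and 68.1 CPM untreated and at 63.6, 69.2 and 99.8 CPM treated, so treated replicate 1 held the lowest level of the gene while holding the highest levels of 26 of the 31 genes. Its log2 fold change was -0.00 (SE 0.24), and 0.11 (SE 0.24) without treated replicate 1. Egln3, a prolyl hydroxylase that is itself induced by hypoxia, was at 13.5, 12.8 and 9.91 CPM untreated and at 55.3, 9.72 and 10.5 CPM treated. Egln1, the main oxygen sensor of most cells, was at 29.5, 27.3 and 28.1 CPM untreated and at 66.2, 29.3 and 32.6 CPM treated. Egln1 had the 4th smallest unadjusted p of the 31 genes (0.106), with a log2 fold change of 0.59 (SE 0.32) that was 0.12 (SE 0.15) without treated replicate 1.

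The other hypoxia-induced genes, 10 in number, all had a log2 fold change above 0 with a median of 0.66, and 0 passed the test. Without treated replicate 1 the median was -0.01, with 4 above 0 and 6 below. Bnip3, which directs mitochondria to autophagy, was at 45.0, 47.5 and 46.1 CPM untreated and at 224, 40.0 and 36.8 CPM treated. Its 5 lower libraries formed a narrow band in which both remaining treated libraries lay under all untreated ones. The log2 fold change was 1.12 (SE 0.68) with all libraries and -0.27 (SE 0.15) without treated replicate 1. P4ha1, a catalytic subunit of the collagen prolyl hydroxylase, was at 81.6, 97.5 and 48.6 CPM untreated and at 213, 80.6 and 71.2 CPM treated. P4ha2, which encodes an alternative catalytic subunit, reached 85.1 CPM in treated replicate 1 and 41.1 to 56.0 CPM in the others.

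Ndrg1, a stress-induced cytosolic protein, was at 381, 394 and 416 CPM untreated and at 1011, 537 and 322 CPM treated. Here treated replicate 2 also lay above the untreated libraries. Ero1a, the oxidase that drives disulphide formation in the endoplasmic reticulum, was at 25.5, 29.7 and 16.5 CPM untreated and at 81.5, 17.7 and 24.8 CPM treated. Ca9, a membrane carbonic anhydrase, was low, at 4.58, 2.03 and 1.92 CPM untreated and at 9.76, 0.632 and 2.64 CPM treated. Its other 5 libraries spanned 7.25 times from lowest to highest, the widest of the 31 genes. Ankrd37, an ankyrin repeat protein, was also low, between 1.51 and 6.24 CPM. Mxi1, a MYC antagonist, stayed between 42.3 and 62.5 CPM in all 6 libraries, and on the FPKM scale treated replicate 1 was not its highest.

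Adm and Ddit4 had the highest log2 fold changes of the 31 genes once treated replicate 1 was left out. Adm, the vasodilator peptide adrenomedullin, was at 4.51, 6.20 and 3.37 CPM untreated and at 13.7, 7.16 and 5.92 CPM treated. The groups overlapped by a single library, since treated replicate 3 lay just under untreated replicate 2. The log2 fold change was 0.93 (SE 0.41, unadjusted p = 0.0589), and 0.47 (SE 0.35) without treated replicate 1. Ddit4, an inhibitor of mTOR complex 1 induced by hypoxia and by glucocorticoids, was at 32.0, 43.9 and 64.4 CPM untreated and at 73.7, 135 and 52.5 CPM treated. Treated replicate 2 held its highest level, which set it apart from the other members. Its log2 fold change was 0.90 (SE 0.40, unadjusted p = 0.0591) with all libraries and 0.999 (SE 0.45, unadjusted p = 0.0674) without treated replicate 1. Without treated replicate 2, which held the highest level, the log2 fold change of Ddit4 was 0.43. Tsc22d3, the glucocorticoid-induced leucine zipper, was likewise highest in treated replicate 2, at 523 CPM against 74.1 to 156 CPM in the other libraries. Of the 7 glucocorticoid-induced genes read, 4 were highest in treated replicate 2 and 1 in treated replicate 1. These 4 include Per1, which is also counted among the core clock genes. The share of all tested genes highest in treated replicate 2 was not counted, and a part of glucocorticoids was not tested. Of the 7 genes, 6 had a log2 fold change above 0 with a median of 0.56 (5 and 0.83 without treated replicate 1). The median of 0.56 is the value of Per1. That gene was at 31.9, 149 and 22.1 CPM in treated replicates 1, 2 and 3 and at 25.5 to 56.9 CPM untreated. This list was not read without treated replicate 2.

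**Figure D4:**
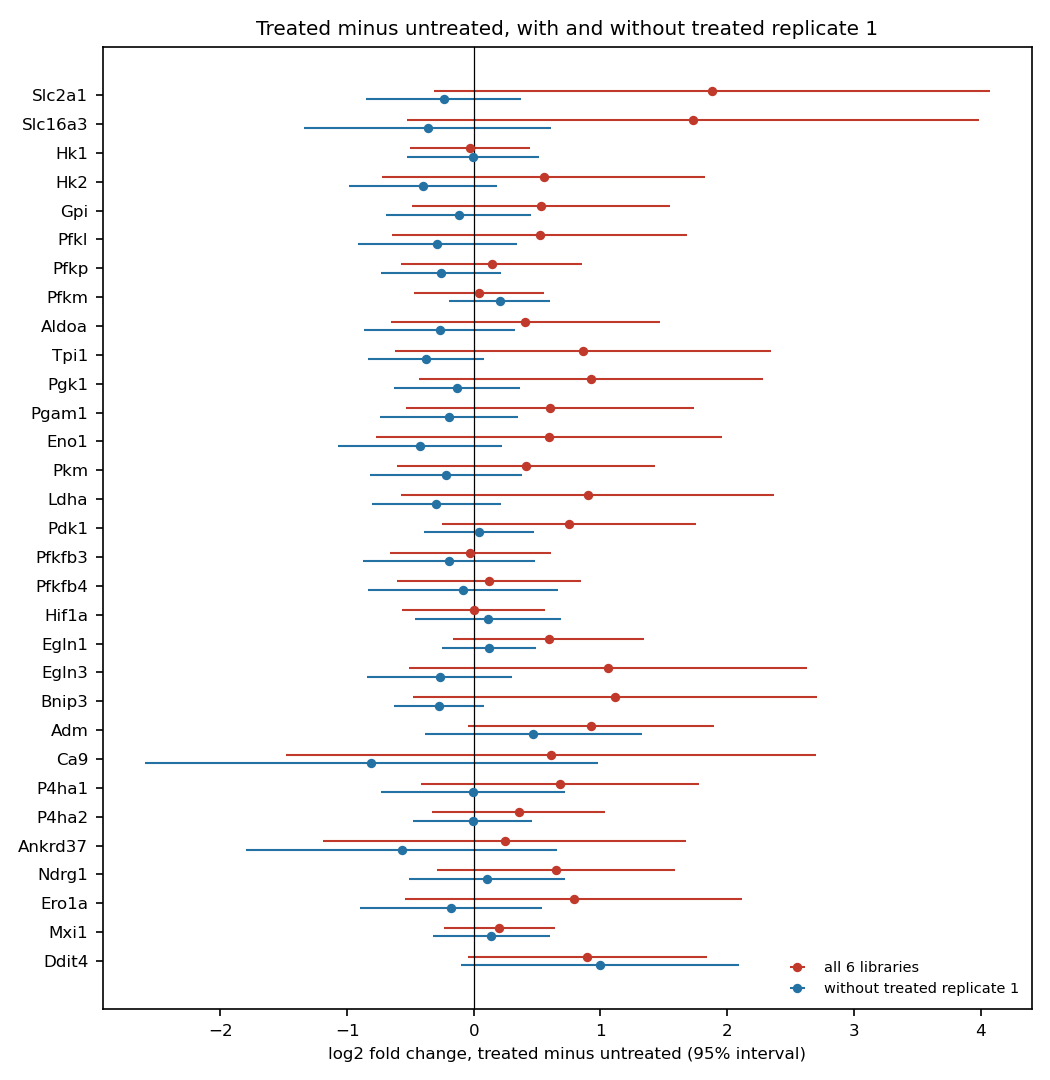
Log2 fold change of each gene, treated minus untreated, with its 95% interval from edgeR, for all 6 libraries (red) and without treated replicate 1 (blue). All intervals of both fits include 0; the red points lie above 0 in 28 of 31 genes and the blue points in 8.

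Levels between genes were compared on the authors' FPKM scale in the untreated aortas. Aldoa was the most abundant of the 31 genes at a mean of 561 FPKM, followed by Pkm at 295, Eno1 at 283 and Ldha at 163 FPKM. At the low end were Ca9 at 1.12, Pfkfb4 at 2.55, Ankrd37 at 2.59 and Adm at 2.73 FPKM. Slc2a1, at 21.3 FPKM, and Slc16a3, at 20.1 FPKM, were close to each other in untreated aortas. In treated replicate 1 they stood at 174 and 147 FPKM, on a level with the enzyme Tpi1 at 178 FPKM.

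Related genes outside the 31 were read in the same fit, and 0 of them passed the adjusted threshold in edgeR. Of 17 measured other hypoxia-induced genes, 14 had a log2 fold change above 0, with a median of 0.44, and 11 were highest in treated replicate 1. Hilpda, a lipid droplet protein induced by hypoxia, was at 8.02, 4.97 and 10.3 CPM untreated and at 44.9, 10.6 and 8.98 CPM treated (log2 fold change 1.47, SE 0.65, and 0.33 without treated replicate 1). Kdm3a, a histone demethylase, was at 34.6, 39.5 and 39.8 CPM untreated and at 69.4, 48.2 and 36.8 CPM treated, with a log2 fold change of 0.44 (SE 0.25) and of 0.16 without treated replicate 1. The log2 fold change was 1.64 (SE 0.73) for Stc2 and 0.69 (SE 0.31) for Vldlr, and 0.84 and 0.58 without that library. Without treated replicate 1 the median of the list was 0.10 and 11 of the 17 were above 0. Of 15 tested glycolytic isoforms and transporters outside the list, 8 were above 0 and 7 below, with a median of 0.08. Without treated replicate 1, 6 were above 0 and the median was -0.11. In treated replicate 1, 6 of these were highest and 6 were lowest, whereas 26 of the 31 genes were highest and 2 were lowest there. Of all tested genes 27.3% were highest and 28.2% lowest in that library.

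Regulators of the hypoxia pathway had a median log2 fold change of 0.05, with 8 of 9 above 0, and of 0.22 with 7 of 9 above 0 without treated replicate 1. Epas1, which encodes the HIF-2 alpha subunit, was at 212, 175 and 206 CPM untreated and at 64.0, 215 and 463 CPM treated, with treated replicate 1 the lowest and replicate 3 the highest. Among 9 genes of glycogen metabolism 7 were above 0, with a median of 0.21, but without treated replicate 1 the count was 4 and the median -0.012. Gys1, the glycogen synthase of muscle and most tissues, was at 20.8, 32.0 and 20.4 CPM untreated and at 93.9, 17.5 and 26.2 CPM treated, with treated replicate 1 the highest and treated replicate 2 the lowest of the 6 libraries, as in Slc16a3. Its log2 fold change was 0.91 (SE 0.60), and -0.17 without treated replicate 1. Pygm, the muscle glycogen phosphorylase, had a log2 fold change of -0.88 (SE 0.29, unadjusted p = 0.0193), and it was -0.73 without treated replicate 1.

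Among 14 genes of pyruvate entry into mitochondria and its use there, 8 were above 0, with a median of 0.12. Without treated replicate 1, 4 of the 14 were above 0 and the median was -0.065. Pc, pyruvate carboxylase, was at 45.9, 107.7 and 28.9 CPM untreated and at 18.3, 22.6 and 21.8 CPM treated, so that its groups did not overlap (log2 fold change -1.54, SE 0.46, unadjusted p = 0.0115). It was -1.46 without treated replicate 1 and -0.84 without untreated replicate 2, which held the highest level. For the Pdk1 relatives Pdk2 and Pdk4 the log2 fold change was -0.57 (SE 0.26) and 0.98 (SE 0.61), and without treated replicate 1 it was -0.38 and 1.40. Without treated replicate 2 the value of Pdk4 was 0.22. Pdha1, a subunit of pyruvate dehydrogenase named after its values were seen, was at 37.7 CPM in treated replicate 1 and between 120 and 158 CPM in the other 5 libraries. On the FPKM scale it was at 22.7 there and between 34.8 and 48.2 elsewhere, so count and FPKM imply different lengths for it across libraries and the size of the distance depends on the scale. Of 7 genes of the pentose phosphate pathway 5 were above 0, with a median of 0.08, and 5 were highest in treated replicate 1. Without that library 2 of the 7 were above 0 and the median was -0.33. Of 4 tested genes of gluconeogenesis 3 were below 0, with a median of -1.01, and again 3 were below 0 without treated replicate 1, with a median of -1.002. With all libraries that median lies between Fbp1, at -1.99, and G6pc3, at -0.03. Fbp1 was at 0.438, 9.57 and 0.562 CPM untreated and at 0.472, 0.561 and 1.62 CPM treated, so its value rests on untreated replicate 2. The medians therefore do not describe a shared fall of these genes. Pck1, the cytosolic enzyme that opens gluconeogenesis and is also counted here among adipocyte markers, was at 59.8, 139 and 91.8 CPM untreated and at 1.67, 14.3 and 12.2 CPM treated, with no overlap (log2 fold change -3.37, SE 0.74, adjusted p = 0.999992 by edgeR). The log2 fold change was -2.88 without treated replicate 1, and Pck1 was among the 29 genes that DESeq2 called (log2 fold change -3.37).

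Markers of several cell types moved with treated replicate 1, and their part in the results was not tested. In bulk tissue, fewer cells of a type and less RNA per cell cannot be told apart. Of 8 inflammatory and lipid-associated macrophage markers 6 were highest in that library, and their summed level there was 27773 CPM, against 8440 to 10905 CPM in the untreated and 6198 to 11403 CPM in the other treated libraries. Within that list Spp1, Mmp12 and Arg1 are given as examples from the 6 that were highest in treated replicate 1. Members that were not highest there are not shown. Spp1, osteopontin, was at 10761 CPM in treated replicate 1 and 1718 to 3039 CPM in the others. Mmp12, the macrophage elastase, was at 6349 CPM and 142 to 762 CPM. Arg1, an arginase of alternatively activated macrophages, was at 168 CPM and 3.52 to 19.6 CPM. The 8 general macrophage markers summed to 4415 CPM there and to 2277 to 3798 CPM elsewhere, with 2 highest and 2 lowest in that library. Over all tested genes 27.3% were highest and 28.2% lowest in treated replicate 1.

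Treated replicate 1 was the lowest library for 28.2% of all tested genes. All 7 endothelial markers with a row were lowest in treated replicate 1, and they summed to 426 CPM against 737 to 1498 CPM elsewhere. Kdr, the main receptor of vascular endothelial growth factor, was at 8.45 CPM there and at 38.8 to 70.1 CPM in the other libraries. All 6 adipocyte markers were also lowest there, with a sum of 32.4 CPM against 174 to 182 CPM in the other treated and 545 to 640 CPM in the untreated libraries, so that the groups did not overlap in this sum. Smooth muscle markers summed to 2378 CPM against 2639 to 4751 CPM, with 4 of 7 lowest, and fibroblast markers to 9325 CPM against 11665 to 20033 CPM, with 4 of 6 lowest. Skeletal muscle markers summed to 16.4 CPM in treated replicate 1 and to 17.4 to 30.0 CPM elsewhere. Erythroid markers, which track blood, summed to 8051 CPM, inside the range of 4540 to 26228 CPM of the others. Markers of neutrophils summed to 20.6 CPM in treated replicate 1 and to 9.12 to 74.7 CPM elsewhere, those of T cells to 36.0 CPM against 21.1 to 123 CPM, and those of B cells to 2.503 CPM against 7.96 to 96.9 CPM. No marker was at 0 in every library, and Th, Dbh, Col2a1 and Ibsp, of neurons, cartilage and bone, were at 0 in some.

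**Figure D5:**
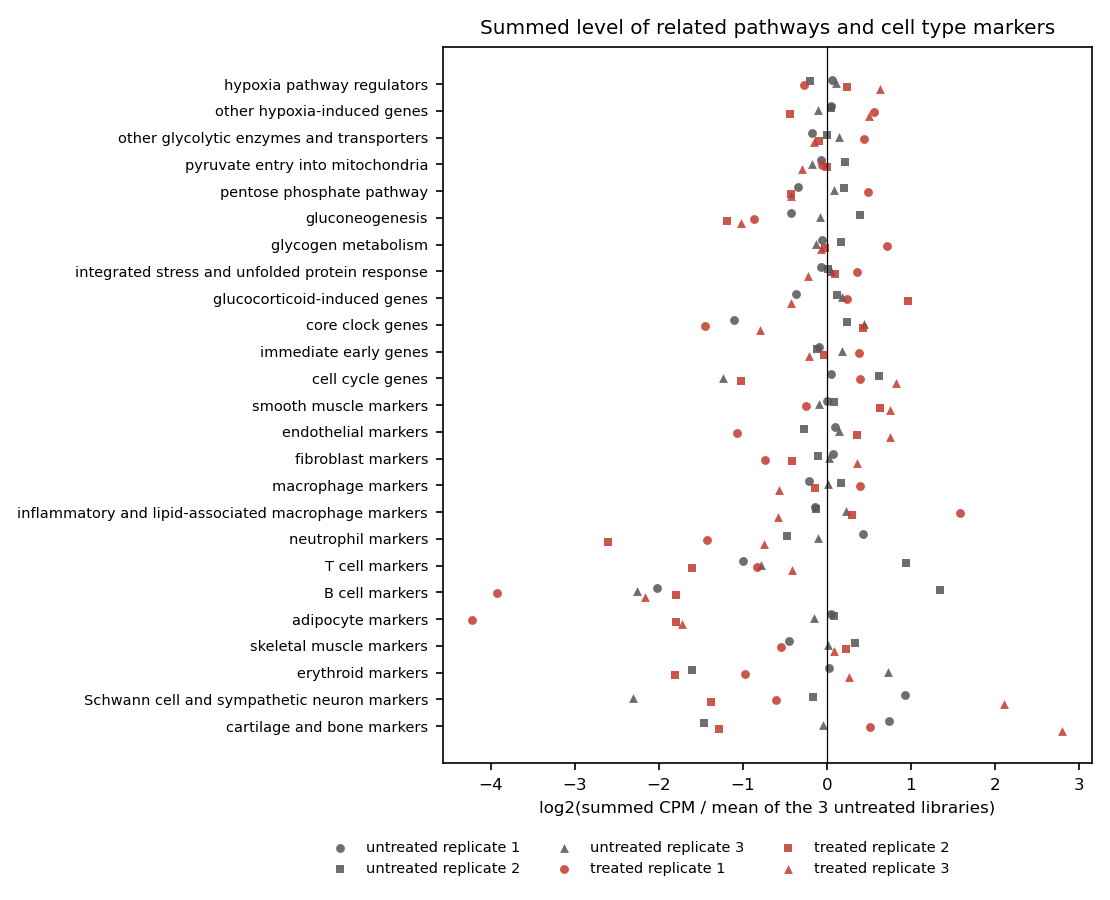
Summed CPM of each related pathway and cell type marker list in each library, as a log2 ratio to the mean of the 3 untreated libraries; untreated libraries are grey, treated are red, and shapes give the replicate number. Treated replicate 1 (red circles) lies right of the other libraries for inflammatory and lipid-associated macrophage markers (27773 CPM) and left of them for endothelial (426 CPM) and adipocyte markers (32.4 CPM).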

How the data were processed

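Rat abdominal aortas with aneurysm, 3 untreated and 3 treated with NP, were profiled by RNA-seq of total RNA. The deposited table gives a whole-number read count and an FPKM value, scaled by the authors to gene length and library size, per gene and library. HISAT2 2.0.4 is named in the submitters' processing notes and SOAPnuke in the series design text. No source used here gives the counting tool, build, annotation or strand setting. For 24 of the 31 genes the length implied by count and FPKM was constant across libraries (SD within 0.01 on the log2 scale). It varied more than that for Pkm, Mxi1 and Pfkfb3. It was not computed for the low-count genes Pfkfb4, Adm, Ca9 and Ankrd37.

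Counts were fitted with edgeR 4.0.16 (R 4.3.3), with filterByExpr at a minimum count of 10, TMM scaling, group as the only term and the quasi-likelihood test. Benjamini-Hochberg adjustment ran over 16522 genes, with a threshold of 0.05. Log2 fold changes are treated minus untreated, and standard errors follow from the F statistic. DESeq2 1.42.0, limma-voom and limma 3.58.1 on log2(FPKM + 1), with a pseudocount of 1, were alternatives, as were other size factors, no filter, a replicate block and leaving out each library. The biological coefficient of variation was 40.7%. The fit was tested on simulated counts with a common dispersion and no outlying library. That check does not cover a library like treated replicate 1.

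All 31 genes are named. Of each related list, up to 4 genes of smallest p-value were named, and of marker lists any member. Other genes named after their values were seen are marked as such where they appear. The genes and lists were chosen with earlier results of these data known. The core sequence was searched on both strands of 300-base RefSeq windows.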

Additional observations from a re-analysis of the deposited data

How the results depend on the processing

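No alternative called any of the 31 genes. Over all genes DESeq2 called 29 and limma on log2(FPKM + 1) called 1, and the other fits called 0. The number of the 31 genes above 0 ranged from 8 to 29 when single libraries were left out, and their median log2 fold change from -0.19 to 0.85, the low end of both being the fit without treated replicate 1. The median was 0.063 with limma-voom's library weights and 0.36 with limma on log2(FPKM + 1). Leaving out single libraries gave between 0 and 6 of the 31 an unadjusted p under 0.05, the 6 being Adm, Bnip3, Ddit4, Ndrg1, Pdk1 and Slc2a1 without treated replicate 3.

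The labels number the libraries of both groups 1 to 3. With the replicate number as a block 0 genes were called, the median was 0.36 and 28 of the 31 genes were above 0. Deviations from the group mean correlated at -0.17, 0.07 and -0.27 between libraries of number 1, 2 and 3, so the numbers were not taken as pairs.

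Without treated replicate 1 the sign changed in 22 of the 31 genes, and in 2 or 3 of them without any one other library. Log2 fold changes over the fits that left out 1 library ran as follows in genes whose sign changed. Slc2a1 ran from -0.24 to 2.36 and Slc16a3 from -0.36 to 2.25. Hk1 ran from -0.21 to 0.10, Hk2 from -0.40 to 0.90, Gpi from -0.12 to 0.81, Pfkl from -0.29 to 0.81, Pfkp from -0.26 to 0.35 and Pfkm from -0.061 to 0.20. Aldoa ran from -0.27 to 0.67, Tpi1 from -0.38 to 1.23, Pgk1 from -0.13 to 1.29, Pgam1 from -0.19 to 0.91, Eno1 from -0.43 to 0.94, Pkm from -0.22 to 0.66 and Ldha from -0.29 to 1.27. Pfkfb3 ran from -0.21 to 0.16, Pfkfb4 from -0.085 to 0.29, Hif1a from -0.23 to 0.17, Egln3 from -0.27 to 1.44 and Bnip3 from -0.27 to 1.52. Ca9 ran from -0.81 to 1.14, P4ha1 from -0.0061 to 0.95, P4ha2 from -0.0094 to 0.52, Ankrd37 from -0.57 to 0.60, Ero1a from -0.18 to 1.15 and Gys1 from -0.17 to 1.30. With limma-voom's library weights 10 genes changed sign, namely Slc16a3 (-0.056), Hk2 (-0.23), Pfkp (-0.10), Aldoa (-0.067), Tpi1 (-0.027), Eno1 (-0.16), Pkm (-0.012), Hif1a (0.081), Ca9 (-0.65) and Ankrd37 (-0.32). Pc moved from -1.54 to -0.84 without untreated replicate 2 and Pdk4 from 0.98 to 0.22 without treated replicate 2. The 31 genes and Stc2, Hilpda, Kdm3a, Vldlr, Gys1, Pygm, Pc, Pdk2, Pdk4 and Pck1 were followed through every fit. Of these, Pck1 alone was called by an alternative, DESeq2 (-3.37). Calls of the other named genes by the alternatives were not read. With DESeq2 size factors inside edgeR Hif1a was at 6.29e-05. The cause of these changes was not tested. Adm, Ddit4, Pdk1, Egln1, Ndrg1 and Mxi1 kept a positive sign in every fit. Ca9, Ankrd37, Adm and Pfkfb4 had the lowest counts of the 31.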

Other observations

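Gene groups outside glycolysis and the hypoxia response differed between libraries in other ways. The 11 core clock genes summed to 222 to 353 CPM in 3 libraries and to 719 to 827 CPM in the other 3, with both groups on each side. Dbp, a clock output gene, was at 16.9, 21.8 and 33.9 CPM in untreated replicate 1 and treated replicates 1 and 3, and at 210.2, 228 and 179 CPM in untreated replicates 2 and 3 and treated replicate 2.

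Of 16 genes of the integrated stress and unfolded protein response, 5 were highest and 5 lowest in treated replicate 1. Over all tested genes 27.3% were highest and 28.2% lowest there. The median log2 fold change of the 16 genes was -0.06 (-0.17 without that library). Phgdh, which opens serine synthesis from a glycolytic intermediate, stood at 11.8, 22.1 and 15.4 CPM untreated and at 3.99, 7.09 and 11.7 CPM treated (log2 fold change -1.11, SE 0.43, unadjusted p = 0.0352 by edgeR's test across all genes). The log2 fold change was -0.82 without treated replicate 1. Its groups did not overlap, by a narrow margin, and treated replicate 1 held its lowest value. The 10 cell cycle genes summed to 168 CPM in treated replicate 1, inside the range of 54.4 to 225 CPM of the other libraries.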
